A study of Homo sapiens with 16 samples.

Results

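The BCL2 family decides at the mitochondrion whether a stressed cell lives or dies, and 10 of its genes were followed here across CDK inhibition and loss of OGT in LNCaP cells, an established line of prostate cancer. The genes were taken by name, as the rows of the count table whose Ensembl identifier maps to MCL1, BCL2L1, BCL2, BCL2L11, BMF, BIK, BBC3, PMAIP1, BAX or BAK1. These are 10 of 60252 genes in the table, and all 10 passed the filter on low counts, which kept 23830 genes. RNA was sequenced in 16 libraries, 2 for each of 8 groups. Cells received a scrambled siRNA (Scr), the OGT siRNA siOGT1, the OGT siRNA siOGT2, or OSMI2, a small-molecule inhibitor of OGT that the labels list in the siRNA field. In each of these 4 arms cells were given the vehicle DMSO or 0.5 μM AT7519, an inhibitor of cyclin-dependent kinases that include the transcriptional kinase CDK9, and were harvested 4 h later. Knockdown lasted 48 h. The sources used here do not give the dose or duration of OSMI2, nor whether its cells were also transfected with a scrambled siRNA. OGT is the enzyme that attaches the sugar O-GlcNAc to proteins in the nucleus and cytosol. All groups are the same cell line, and the labels do not state that replicates were separate cultures. The p-values therefore reflect only how far these libraries differ, which may be technical.

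Mitochondrial apoptosis starts when the pore-forming proteins BAX and BAK1 (the protein BAK) open the outer membrane and let cytochrome c into the cytosol. Prosurvival members such as MCL1, BCL2 and the long form of BCL2L1 (BCL-XL) hold the pore-formers and their activators in check. BH3-only proteins, here BCL2L11 (BIM), BMF, BIK, BBC3 (PUMA) and PMAIP1 (NOXA), bind the prosurvival proteins through a short helix, and some also engage BAX and BAK1 directly. MCL1 protein turns over quickly, which is why inhibitors of transcriptional CDKs are widely studied as a means to lower it. BCL2L11 is a textbook target of FOXO factors. Gene counts read all isoforms of a gene together, so the short, death-promoting forms of MCL1 and BCL2L1 were not separated from the long forms, and protein was not measured.

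Total counts ran from 40216911 to 147019364 per library. OGT stood between 263.4 and 314.3 CPM (the count over the scaled library size) in the Scr libraries of both agents, between 10.98 and 20.7 CPM in the siOGT1 libraries, between 29.3 and 36.0 CPM in the siOGT2 libraries and between 335.9 and 421.5 CPM in the OSMI2 libraries. The luminal prostate markers were all detected, with a summed level of 4312 to 5420 CPM per library. Basal markers summed to at most 1.08 CPM and leukocyte markers to at most 0.811 CPM, with CD3E and TP63 at 0 in 13 of 16 libraries each. Neuroendocrine markers summed to 12.8 to 20.5 CPM, mostly ENO2. Stromal markers summed to 10.8 to 41.1 CPM, nearly all of it COL1A1, with COL1A2 at 0 in 15 of 16 libraries.

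AT7519 lowered most BH3-only genes and BCL2 and BAK1, while BAX rose in every arm and MCL1 rose in Scr and siOGT2. In Scr cells 6 of the 10 genes fell (24.6% of all genes tested fell) and 3 rose (21.8% rose), and BCL2L1 did not pass the test at an adjusted p of 0.05. In siOGT1 cells 6 fell (22% of all genes) and 1 rose (19.4%), in siOGT2 cells 7 fell (22.8%) and 2 rose (22.2%), and in OSMI2 cells 8 fell (23.6%) and 1 rose (23.6%). The median log2 fold change of the 10 genes was -0.78 with the scrambled siRNA, -0.71 and -0.70 with siOGT1 and siOGT2, and -0.96 in OSMI2. Over all tested genes the medians were -0.05, -0.05, -0.03 and 0.02. Of the genes called in Scr, 47% were higher, against 58.7% with upper-quartile scaling and 26.9% with library-size scaling. BCL2, BCL2L11, BMF, BIK, PMAIP1 and BAK1 fell in all 4 arms, which makes 6 genes, and BAX rose in all 4. The share of all tested genes that fell or rose in all 4 arms was not computed. The share whose treated and control libraries did not overlap is not given either, so statements on overlap are description only. All values are edgeR quasi-likelihood tests, two-sided, with 2 libraries per group. In bulk RNA a loss of cells that express a gene and less RNA per cell cannot be told apart. The counts are relative to the other RNA of a library, so a change in the total amount of mRNA per cell was not measured.

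**Figure D1:**
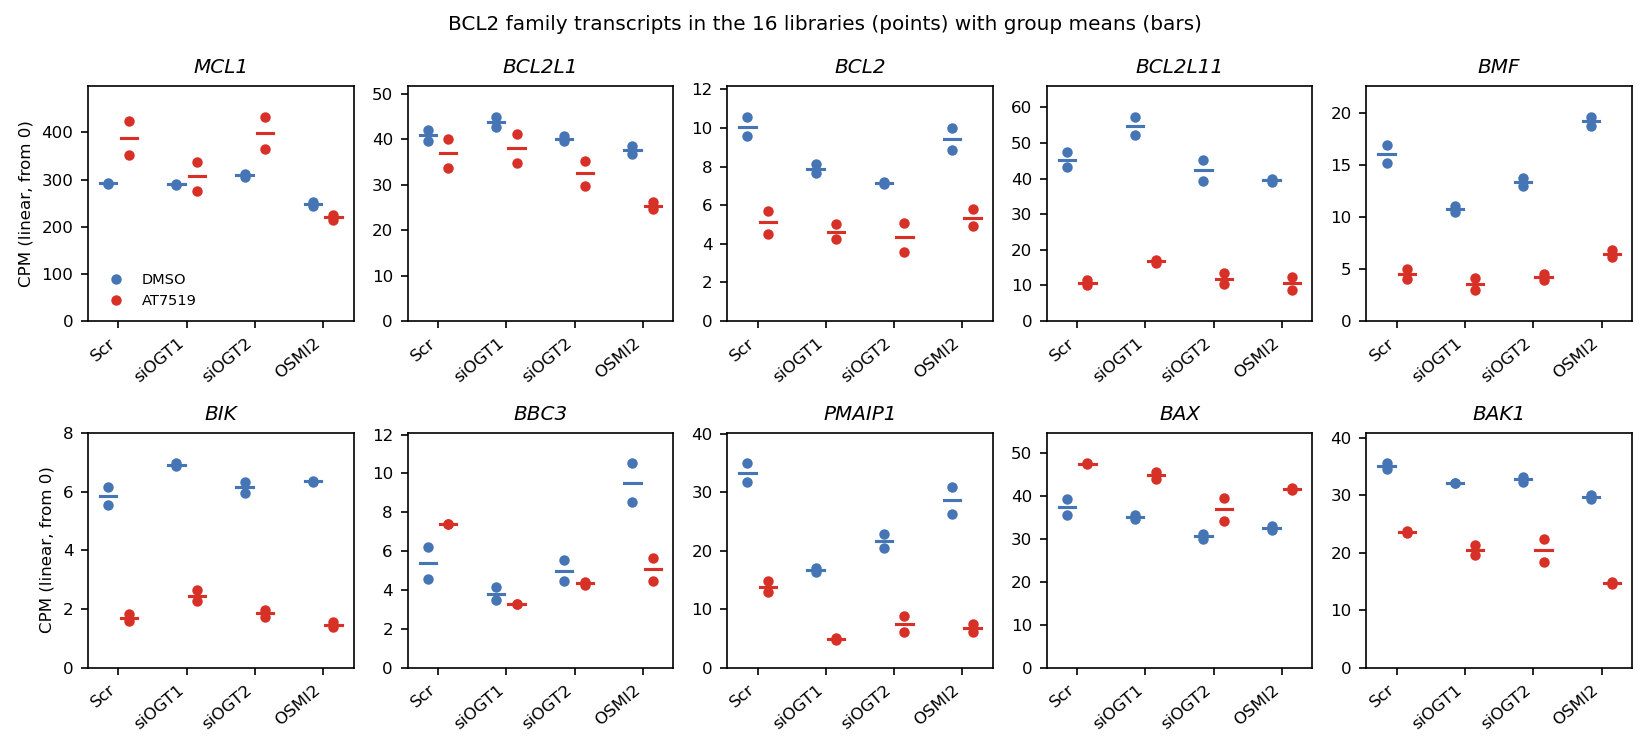
CPM of each of the 10 genes (vertical axis, linear and starting at 0) in the 4 arms (horizontal axis), with DMSO libraries in blue and AT7519 libraries in red; points are single libraries and short bars the mean of 2. BCL2L11, BMF, BIK and PMAIP1 have every AT7519 point below every DMSO point of the same arm, and BAX has the reverse order.

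Among the prosurvival genes, MCL1, whose protein guards against BAK1 in particular, was the most abundant. It stood at 290.3 and 293.6 CPM in Scr under DMSO and at 424 and 352 CPM with AT7519, a rise of 1.33-fold (log2 fold change 0.41, SE 0.10, adjusted p = 0.00181). Both treated libraries lay above both controls. MCL1 moved from 312 and 306 to 433 and 365 CPM in siOGT2 (0.37, SE 0.10, adjusted p = 0.00433), again without overlap. In siOGT1 it went from 291 and 288 to 338 and 276 CPM (0.08, adjusted p = 0.536), and the treated libraries fell on either side of the controls. In OSMI2 it went from 243 and 252 to 225 and 215 CPM (-0.17, adjusted p = 0.166), where both treated libraries were the lower. OSMI2 with AT7519 thus had the lowest MCL1 values of the 16 libraries, and siOGT2 and Scr with AT7519 the highest, with overlapping values. The rise in both arms was lost when libraries were scaled by their size only (0.16, adjusted p = 0.111 in Scr; 0.10, adjusted p = 0.329 in siOGT2). In OSMI2 the same scaling made the MCL1 value a called fall (-0.42, adjusted p = 2.81e-04). That fall also passed without a filter on low counts (-0.23, adjusted p = 0.0343), with the compared groups only (-0.21, adjusted p = 0.0255) and with a replicate block within agent (adjusted p = 0.0252), 4 of 9 settings in all, while upper-quartile scaling brought the value to 0.00 (adjusted p = 0.994). Library-size scaling lowered the median of all genes by 0.25 in Scr and by 0.26 in siOGT2. The siOGT2 rise also lost its call without siOGT2 AT7519 replicate 1 (0.24, adjusted p = 0.0822). In each of the 3 siRNA arms replicate 1 of the AT7519 libraries had more MCL1 than replicate 2.

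BCL2L1, the gene of BCL-XL, passed only in OSMI2 and siOGT2 in the fit of all samples. Its values were 42.1 and 39.7 CPM in Scr under DMSO and 40.2 and 33.6 CPM with AT7519 (-0.15, adjusted p = 0.279), and the groups overlapped. In OSMI2 it fell from 38.6 and 36.7 to 26.2 and 24.7 CPM, 1.48-fold lower (-0.56, SE 0.11, adjusted p = 2.62e-04). In siOGT2 it fell from 39.7 and 40.6 to 35.3 and 29.7 CPM (-0.31, SE 0.11, adjusted p = 0.0274). This call in siOGT2 was lost with upper-quartile scaling (-0.20, adjusted p = 0.108) and without either DMSO library or AT7519 replicate 2 of that arm. Conversely, with library-size scaling BCL2L1 passed in Scr (-0.40, adjusted p = 0.00185) and siOGT1 (-0.43, adjusted p = 0.00103). In siOGT1 it also passed with a mean log2 CPM of 3 or more (-0.27, adjusted p = 0.025) and with the replicate block within agent (-0.21, adjusted p = 0.0237). The reads of BCL2L1 could include some of ABALON, an antisense RNA whose exons it shares on the other strand, although ABALON itself held 903 counts over all libraries against 43745 for BCL2L1.

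BCL2, the founding member of the family and the longest of the 10 genes, was a low transcript here. It fell from 9.56 and 10.6 to 5.71 and 4.51 CPM in Scr, 1.98-fold lower (-0.98, SE 0.17, adjusted p = 9.99e-05). Its falls in siOGT1, siOGT2 and OSMI2 were -0.78, -0.72 and -0.82 on the log2 scale, with adjusted p of 0.00117, 0.00233 and 6.15e-04. Treated and control libraries did not overlap in any arm. In siOGT2 the fall lost its call without AT7519 replicate 2 (-0.49, adjusted p = 0.0556).

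The BH3-only genes gave the largest changes of the family. BCL2L11, which encodes BIM, an activator that binds all prosurvival members, stood at 43.2 and 47.5 CPM in Scr under DMSO and at 11.5 and 10.1 CPM with AT7519, a fall of 4.19-fold (-2.07, SE 0.14, adjusted p = 1.05e-09). In siOGT1 it fell from 52.2 and 57.4 to 17.3 and 16.4 CPM, in siOGT2 from 39.4 and 45.2 to 13.5 and 10.35 CPM and in OSMI2 from 39.1 and 40.02 to 8.83 and 12.5 CPM. Every treated library lay far below its controls, and the falls of -1.70, -1.83 and -1.91 had adjusted p of at most 1.42e-08. In Scr, 4.59% of tested genes had a lower log2 fold change than BCL2L11.

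BMF, a BH3-only protein tied to the cytoskeleton through dynein light chain, fell from 16.9 and 15.2 to 4.97 and 4.10 CPM in Scr, 3.56-fold lower (-1.83, SE 0.15, adjusted p = 1.21e-08). BIK, a BH3-only protein of the endoplasmic reticulum, fell from 5.53 and 6.14 to 1.82 and 1.58 CPM, 3.44-fold lower (-1.78, SE 0.18, adjusted p = 9.13e-08). Over the other 3 arms the falls were -1.66 to -1.57 for BMF and -2.13 to -1.49 for BIK, with no overlap between agents. BIK had the fewest reads of the 10 genes, 59 to 224 counts in the AT7519 libraries.

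PMAIP1 encodes NOXA, which binds MCL1 and promotes its destruction. It fell from 31.7 and 35.0 to 14.75 and 12.9 CPM in Scr, 2.41-fold lower (-1.27, SE 0.15, adjusted p = 8.88e-07). The fall was -1.76 in siOGT1, from 16.3 and 17.0 to 4.77 and 5.06 CPM, and -1.53 in siOGT2, from 20.4 and 22.8 to 8.88 and 6.03 CPM. In OSMI2 it was -2.06, from 30.9 and 26.4 to 7.54 and 6.11 CPM, 4.16-fold lower (adjusted p = 3.04e-09). Among the AT7519 libraries those of Scr were the highest and those of siOGT1 the lowest, and the values of siOGT2 and OSMI2 overlapped.

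BBC3, which encodes the activator PUMA, was the BH3-only gene that did not follow the others. In Scr it went from 6.23 and 4.57 to 7.42 and 7.37 CPM, a rise that passed narrowly (0.45, SE 0.18, adjusted p = 0.0491). The call was lost without Scr AT7519 replicate 1 (0.47, adjusted p = 0.0967), without its replicate 2 (0.46, adjusted p = 0.116), without Scr DMSO replicate 2 (0.24, adjusted p = 0.422) and with library-size scaling (0.20, adjusted p = 0.389). In siOGT1 BBC3 went from 4.16 and 3.46 to 3.27 and 3.26 CPM (-0.23, adjusted p = 0.352), and in siOGT2 from 5.54 and 4.45 to 4.27 and 4.43 CPM (-0.20, adjusted p = 0.41). Neither passed. The treated libraries lay below the controls in both arms, but in siOGT2 the nearest 2 were almost equal, at 4.43 and 4.45 CPM. In OSMI2 it fell from 10.5 and 8.53 to 5.66 and 4.47 CPM (-0.90, SE 0.18, adjusted p = 4.21e-04), with both treated libraries below both controls. OSMI2 also had the highest BBC3 values under DMSO.

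The pore-forming pair moved in opposite directions. BAX rose from 35.4 and 39.2 to 47.5 and 47.3 CPM in Scr (0.35, SE 0.09, adjusted p = 0.00347), and the rises were 0.35 in siOGT1, 0.27 in siOGT2 and 0.36 in OSMI2. No treated library overlapped its controls. With library-size scaling none of the 4 rises passed, with values of 0.10, 0.13, 0.00 and 0.11 and adjusted p of 0.229 to 0.98. The BAX call was also lost in Scr without Scr DMSO replicate 1 (0.27, adjusted p = 0.073), in OSMI2 without its AT7519 replicate 1 (adjusted p = 0.0504) and in siOGT2 without either DMSO library, without AT7519 replicate 1 or with the compared groups only (0.26, adjusted p = 0.0815). BAK1 fell from 34.5 and 35.5 to 23.8 and 23.35 CPM in Scr (-0.57, SE 0.10, adjusted p = 9.19e-05), and by 0.65, 0.69 and 1.02 on the log2 scale in siOGT1, siOGT2 and OSMI2. In OSMI2 the values went from 29.4 and 30.0 to 14.8 and 14.5 CPM, the lowest BAK1 of any group. The falls of BCL2L11, BMF, BIK, PMAIP1 and BAK1 kept their call in all arms under each alternative in which the gene was tested.

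**Figure D2:**
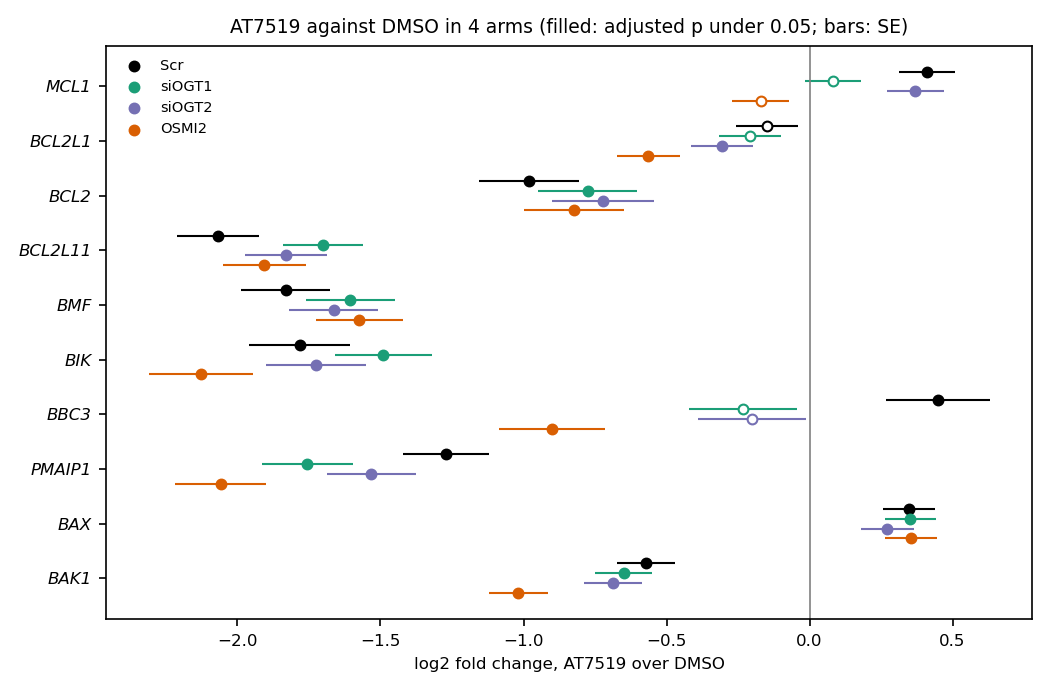
Log2 fold change of AT7519 over DMSO (horizontal axis) for the 10 genes (vertical axis) in 4 arms (colours), with bars for the SE and filled points where the adjusted p was under 0.05. The points of BCL2L11 span -2.07 to -1.70 and those of BAX 0.27 to 0.36, while BBC3 runs from 0.45 in Scr to -0.90 in OSMI2.

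Promoter sequences of 3 genes that fell and of the one that rose in all arms are shown so that their composition can be compared. They are the 250 bases before the start, from RefSeq on GRCh38.p14 (the counts were made on GRCh37), and 8 of the 10 genes had an entry. Each is written 5′ to 3′ on the gene's strand, and capitals mark matches on either strand to 5 motifs, none of which overlap another. The GC box was searched as GGGCGG. The E-box was searched as CACGTG, and the TATA box as TATAAA. The forkhead motif was searched as GTAAACA, and the last was the CCAAT box by its own letters. The windows are chr2:111120664-111120913 on the plus strand for BCL2L11, chr18:59899746-59899995 on the plus strand for PMAIP1, chr15:40108880-40109129 on the minus strand for BMF and chr19:48954625-48954874 on the plus strand for BAX.
BCL2L11: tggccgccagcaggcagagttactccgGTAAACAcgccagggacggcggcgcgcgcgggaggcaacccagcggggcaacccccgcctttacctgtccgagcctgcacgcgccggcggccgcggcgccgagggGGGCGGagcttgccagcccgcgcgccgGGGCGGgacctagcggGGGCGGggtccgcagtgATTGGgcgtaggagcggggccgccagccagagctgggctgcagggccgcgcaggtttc
PMAIP1: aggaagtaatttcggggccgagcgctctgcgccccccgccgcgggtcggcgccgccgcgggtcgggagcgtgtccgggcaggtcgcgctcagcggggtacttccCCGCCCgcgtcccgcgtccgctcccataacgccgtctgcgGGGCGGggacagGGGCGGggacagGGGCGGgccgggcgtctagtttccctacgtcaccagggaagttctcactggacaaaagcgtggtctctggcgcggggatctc
BMF: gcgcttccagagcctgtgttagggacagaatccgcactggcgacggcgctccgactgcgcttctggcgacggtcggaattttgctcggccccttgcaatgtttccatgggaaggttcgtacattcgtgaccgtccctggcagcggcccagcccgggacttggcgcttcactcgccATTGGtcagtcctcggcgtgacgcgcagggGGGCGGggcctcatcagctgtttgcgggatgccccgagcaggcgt
BAX: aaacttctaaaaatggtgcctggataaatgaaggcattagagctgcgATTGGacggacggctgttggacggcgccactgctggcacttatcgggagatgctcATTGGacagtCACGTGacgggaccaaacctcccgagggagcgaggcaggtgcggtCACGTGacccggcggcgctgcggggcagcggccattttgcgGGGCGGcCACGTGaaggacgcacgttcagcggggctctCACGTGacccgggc
The BCL2L11 window was 76.8% G or C with 34 CG pairs and held 3 GC boxes, 1 CCAAT match and 1 forkhead motif. The PMAIP1 window was 72.8% G or C with 36 CG pairs and held 4 GC boxes. BMF had 65.2% G or C, 26 CG pairs, 1 GC box and 1 CCAAT match. Its other listed start had 48.8% G or C, 0 CG pairs and no match. Of the 4 windows shown, that of BAX was the least rich in G or C (62.8%, 25 CG pairs). It held 4 E-boxes, 2 CCAAT matches and 1 GC box. BAK1 and BCL2 also fell in all arms, and their windows are not shown. That of BAK1 had less G or C than BAX (58%, 5 CG pairs), with 2 GC boxes and 1 CCAAT match. That of BCL2 had 70% G or C and 24 CG pairs, with no match. Over 35116 promoter windows of the same length the median was 58% G or C with 11 CG pairs. Of these windows 42.6% held a GC box, 32% a CCAAT match, 6.34% an E-box, 10.7% a TATA box and 2.98% the forkhead motif. A match describes letters and not a bound factor.

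Levels of different genes were compared as CPM per kilobase of exon, with exon lengths from GENCODE v29. In Scr under DMSO the order was MCL1 at 66.8, BAK1 at 15.8, PMAIP1 at 14.9, BAX at 14.4, BCL2L1 at 12.3, BCL2L11 at 6.81, BIK at 6.12, BMF at 2.95, BBC3 at 1.70 and BCL2 at 0.86, as means of 2 libraries. The single libraries of BAK1 and PMAIP1 overlapped in level, as did those of PMAIP1 and BAX, and other neighbours in this order did not. MCL1 alone made up 47.2% and 46.4% of the summed level of the 10 genes in the 2 libraries, and 63.7% and 61.0% with AT7519. Its share was also higher with AT7519 in every other arm. In siOGT2 it went from 52.3% and 51.3% to 68.9% and 67.1%, and in OSMI2 from 43.7% and 45.7% to 56.1% and 55.6%. In OSMI2 the mean MCL1 level itself went down, from 56.6 to 50.3 CPM per kilobase. The mean sum of the 10 genes there went from 126.7 to 90.1. The share depends on the annotated length, which may differ from the isoforms that LNCaP cells use.

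Summed by role, the BH3-only genes went from 31.5 and 33.5 CPM per kilobase in Scr under DMSO to 13.5 and 12.02 with AT7519, from 22.4% and 23.1% of the sum of 10 genes to 8.85% and 9.11%. In OSMI2 their sum went from 33.1 and 30.8 to 9.05 and 8.90 CPM per kilobase. The prosurvival sum, which is mostly MCL1, went from 79.9 and 80.0 to 109.7 and 91.0 CPM per kilobase in Scr and from 68.1 and 69.5 to 59.7 and 57.1 in OSMI2. The pore-forming sum went in Scr from 29.3 and 31.2 to 29.1 and 28.8 CPM per kilobase, with BAX up and BAK1 down. These sums are given as a description and were not tested. They cover the 10 genes only, so the prosurvival sum holds MCL1, BCL2L1 and BCL2. It leaves out the prosurvival gene BCL2L2, whose mean went from 79.8 to 55.2 CPM with AT7519 in Scr.

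**Figure D3:**
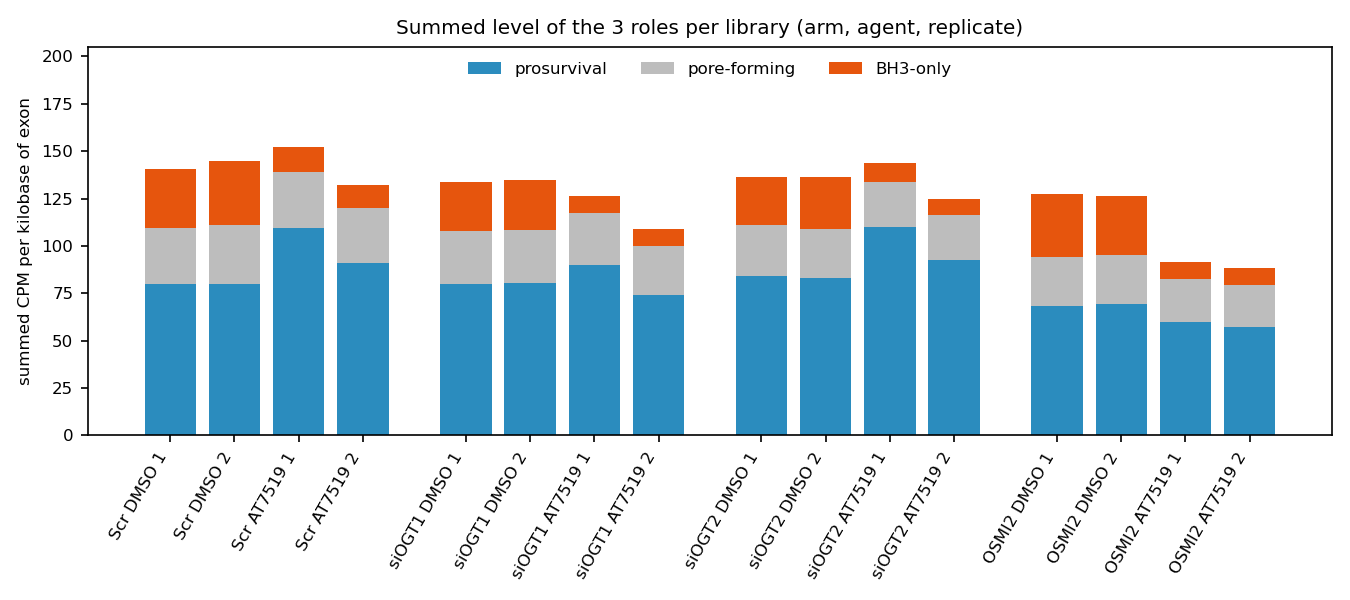
Summed CPM per kilobase of exon (vertical axis, from 0) in each of the 16 libraries (horizontal axis, arm, agent and replicate), stacked as prosurvival, pore-forming and BH3-only genes. The BH3-only segment is 25.6 to 33.5 in the DMSO libraries and 8.44 to 13.5 in the AT7519 libraries.

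Without AT7519, loss or inhibition of OGT changed few of the 10 genes. Against Scr under DMSO, siOGT1 lowered 2 (5.51% of all tested genes fell) and raised 0 (4.89% rose), siOGT2 lowered 1 (2.38% fell) and raised 0 (1.92% rose), and OSMI2 raised 1 (0.491% rose) and lowered 0 (2.49% fell). At an unadjusted p under 0.05 there were 4, 3 and 4 of the 10 genes in either direction, beside 5472, 3993 and 3623 of the 23830 tested. DESeq2 called 2, 1 and 1 of the 10, beside 2995, 1426 and 1115 of all tested genes. The 3 comparisons share the same Scr libraries.

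PMAIP1 was the gene that fell with both siRNAs. From 31.7 and 35.0 CPM in Scr it went to 16.3 and 17.0 CPM with siOGT1, 2.004-fold lower (-1.003, SE 0.15, adjusted p = 2.00e-04), and to 20.4 and 22.8 CPM with siOGT2 (-0.63, SE 0.15, adjusted p = 0.0185). No knockdown library overlapped Scr. The siOGT1 call held whichever library was left out, and the siOGT2 call was lost without any 1 of the 4 libraries (adjusted p 0.0629 to 0.176). In OSMI2 PMAIP1 stood at 30.9 and 26.4 CPM (-0.22, adjusted p = 0.536). BMF fell with siOGT1 from 16.9 and 15.2 to 11.1 and 10.5 CPM (-0.57, SE 0.14, adjusted p = 0.0140), a call lost without Scr DMSO replicate 1 or either siOGT1 DMSO library (adjusted p 0.0655 to 0.147). With siOGT2 its values were 13.8 and 13.0 CPM (-0.26, adjusted p = 0.39).

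BBC3 rose with OSMI2 from 6.23 and 4.57 to 10.5 and 8.53 CPM, 1.76-fold (0.81, SE 0.18, adjusted p = 0.0187), with both OSMI2 libraries above both Scr libraries. The call was lost without OSMI2 DMSO replicate 1 (0.65, adjusted p = 0.191), without its replicate 2 (0.95, adjusted p = 0.0817) and without Scr DMSO replicate 2 (0.61, adjusted p = 0.38). With siOGT1 the value was in the other direction and did not pass (4.16 and 3.46 CPM, -0.50, adjusted p = 0.0917), but it passed with the replicate block (adjusted p = 0.0358) and the block within agent (0.0124). In the fit of all samples MCL1, BCL2L1, BCL2, BCL2L11, BIK, BAX and BAK1 passed in none of these 3 comparisons. Other settings called some of them. For siOGT2, BCL2 was lower with the compared groups only (-0.47, adjusted p = 0.0447) and with the block within agent (-0.49, adjusted p = 0.026), and BAX was lower with a mean log2 CPM of 3 or more (-0.26, adjusted p = 0.0499) and the block within agent (-0.29, adjusted p = 0.0165). For OSMI2, MCL1 was lower with the block within agent (-0.24, adjusted p = 0.0138). For siOGT1, BCL2L11 was higher with the compared groups only (0.28, adjusted p = 0.0405).

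**Figure D4:**
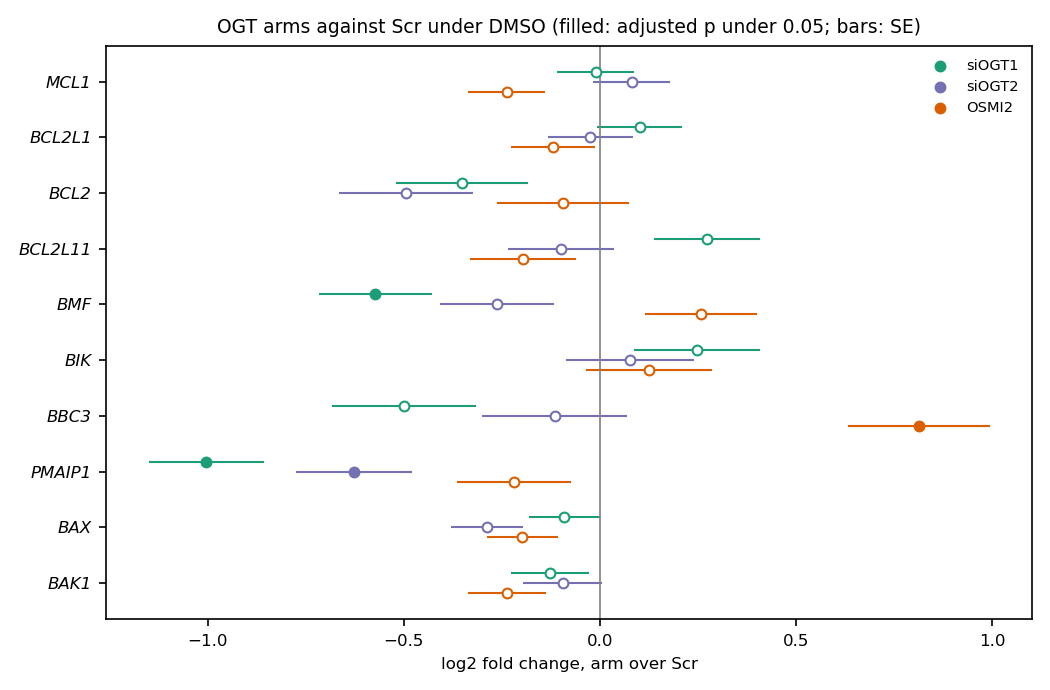
Log2 fold change of siOGT1, siOGT2 and OSMI2 over Scr under DMSO (horizontal axis) for the 10 genes (vertical axis), with bars for the SE and filled points where the adjusted p was under 0.05. PMAIP1 lies at -1.003 with siOGT1 and -0.63 with siOGT2, and BBC3 at 0.81 with OSMI2.

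Whether OGT status altered the AT7519 response was tested as the response in an arm minus that in Scr. The difference passed for 0 of 10 genes with siOGT1 (0.0378% of all genes were higher and 0.0126% lower), 0 with siOGT2 (0% of all genes, with 928 at an unadjusted p under 0.05 and 3 called by DESeq2) and 1 with OSMI2, which was lower (0.663% of all genes were lower and 0.0839% higher). At an unadjusted p under 0.05 there were 3, 1 and 5 of the 10 genes, beside 1393, 928 and 2087 of the 23830 tested. DESeq2 called 0, 0 and 3 of the 10, beside 85, 3 and 426 of all tested genes. The gene in OSMI2 was BBC3, which also had differences of -0.68 with siOGT1 and -0.65 with siOGT2 that did not pass. Its response was 1.35 lower on the log2 scale in OSMI2 than in Scr (-1.35, 95% interval -1.95 to -0.75, adjusted p = 0.0169). The call was lost without OSMI2 DMSO replicate 1 (-1.19, adjusted p = 0.12), Scr DMSO replicate 2 (-1.15, adjusted p = 0.119) or OSMI2 AT7519 replicate 2 (-1.25, adjusted p = 0.0766).

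For MCL1 the difference between OSMI2 and Scr was -0.58 (SE 0.14, adjusted p = 0.0575), just outside the threshold. It passed in each of the 9 other settings tried (adjusted p 4.21e-05 to 0.0442), and in 2 of the 8 fits that left out 1 library, with values of -0.76 to -0.51 in those 8. The differences for PMAIP1 (-0.79, adjusted p = 0.108), BAK1 (-0.45, adjusted p = 0.217) and BCL2L1 (-0.41, adjusted p = 0.35) did not pass in the fit of all samples. That of PMAIP1 passed in 4 of 9 other settings, namely DESeq2 (adjusted p = 0.0185), no filter (9.52e-04), the compared groups only (0.0298) and the replicate block within agent (0.00446), and in 1 of 8 fits that left out a library, OSMI2 AT7519 replicate 1 (-1.03, adjusted p = 0.0371). BCL2L1 passed in 1 of 9 settings, the replicate block within agent (adjusted p = 0.0301), and BAK1 in 0 of 9 (adjusted p 0.0541 to 0.267). For BCL2L11, the gene with the strongest fall in Scr, the 95% interval of the difference was -0.09 to 0.82 with siOGT1, -0.22 to 0.70 with siOGT2, -0.30 to 0.62 with OSMI2, and none passed.

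The wider pathway was read from 3 lists. Of 13 tested of 15 other BCL2 family genes, AT7519 in Scr raised 5 and lowered 4 (median 0.03), where 21.8% of all tested genes rose and 24.6% fell (median -0.05). The prosurvival gene BCL2L2 (BCL-W) fell (-0.53, adjusted p = 1.49e-05), and BNIP3, which acts in mitophagy (0.41, adjusted p = 1.47e-04), BCL2L12 (0.44, adjusted p = 0.0014) and BNIP1 (0.46, adjusted p = 0.00308) rose. Of 13 genes of the mitochondrial death machinery, 6 rose and 3 fell in each of the 4 arms. Over all tested genes, 19.4% to 23.6% rose and 22% to 24.6% fell in these arms. XIAP, a caspase inhibitor, fell in Scr (-1.04, adjusted p = 1.94e-07), and CYCS, which encodes cytochrome c (0.57, adjusted p = 3.67e-05), AIFM1, the apoptosis-inducing factor (0.52, adjusted p = 9.78e-06), and the mitochondrial porin VDAC2 (0.64, adjusted p = 4.03e-07) rose. With OSMI2 alone, 4 of these 13 genes were lower than in Scr under DMSO, beside 2.49% of all tested genes. They were CYCS (-0.61), VDAC1 (-0.40), VDAC2 (-0.34) and VDAC3 (-0.31), named after their values were seen.

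Of 12 genes known to act on the 10, AT7519 in Scr lowered 7 and raised 2 (median -0.40), beside 24.6% lowered and 21.8% raised over all tested genes. In siOGT1 and siOGT2 it lowered 7 and 6 and raised 2 in each (medians -0.38 and -0.31). In OSMI2 it lowered 5 and raised 1 with a median of 0.02, beside 0.02 over all genes. In Scr, FOXO1, a transcription factor that acts on BCL2L11 (-1.31, adjusted p = 7.34e-07), DDIT3, a stress factor that acts on BH3-only genes (-1.25, adjusted p = 2.43e-06), and USP9X, which removes ubiquitin from MCL1 (-0.57, adjusted p = 3.08e-06), fell. FBXW7, a ubiquitin ligase receptor for MCL1, rose (0.84, adjusted p = 2.37e-05). With siOGT1 alone, 2 of the 12 were lower than in Scr and 0 higher, beside 5.51% and 4.89% of all tested genes. With siOGT2 alone, 1 was lower and 0 higher, beside 2.38% and 1.92%. With OSMI2 alone, 0 were lower and 0 higher, beside 2.49% and 0.491%. ATF4, a transcription factor of the stress response, was 1 of the 2 with siOGT1 (-0.37, adjusted p = 0.0186), and it was named after its values were seen.

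Over the 8 group means, the genes whose pattern was closest to MCL1 among 10109 candidates were WDR70 (Pearson r = 0.977), HAUS3 (0.972) and NT5C3A (0.958). Those closest to BCL2L11 were EHMT1 (0.999), ZBTB42 (0.997) and PHACTR4 (0.997). The r values describe 8 points that share the split between agents, and no test is attached. Reads at MCL1, BCL2L11 and BAK1 could include some of the genes that overlap their exons, but those held few: 280 counts for ADAMTSL4-AS1 against 351915 for MCL1, 738 for MIR4435-2HG against 36992 for BCL2L11 and 228 for GGNBP1 against 31443 for BAK1.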

How the data were processed

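RNA was measured by strand-specific sequencing of total RNA in 16 libraries of LNCaP cells. Raw counts, as deposited by the authors, are whole numbers per gene and sample. For alignment and counting the tools STAR and HTSeq, and DESeq2, are listed in the submitters' processing notes with the builds hg19 and GRCh37, but no version. The sources used here do not give the strand setting. The signal values of the deposited normalized table equal the count over 1 size factor per sample (largest relative deviation 5e-10) and were not tested separately. Symbols were matched by Ensembl identifier (55528 of 60252 genes). Exon lengths and overlapping genes come from GENCODE v29 on GRCh38, and promoter sequences from RefSeq.

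Counts were fitted in R 4.3.3 with edgeR 4.0.16 (limma 3.58.1) on all 16 samples, with TMM scaling, filterByExpr at a minimum count of 10 (23830 genes), 1 mean per group (8 residual degrees of freedom), glmQLFit with robust estimation and glmQLFTest, two-sided. P-values were adjusted by Benjamini-Hochberg over all genes tested, with a threshold of 0.05. The common biological coefficient of variation was 0.11. CPM values use the TMM library sizes. The 10 comparisons were AT7519 against DMSO in 4 arms, every other arm against Scr without AT7519 (3), and the AT7519 response of each such arm minus that of Scr (3). The fits were tested on simulated data.

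The numbers of called genes, the share of them that was higher, the median of all genes and the values of the 10 genes were recomputed in other settings. These were DESeq2 1.42.0, RLE, upper-quartile or library-size scaling, no filter, and a mean log2 CPM of 3 or more. The others were a fit restricted to the compared groups, a replicate block, one within agent (chosen after seeing the data), and each library left out. For the pathway lists, role sums, shares of the 10-gene sum and Pearson r values, only the main settings are given. The 10 genes were all named. Of each pathway list up to 4 genes were named by smallest adjusted p for AT7519 in Scr, and for MCL1 and BCL2L11 the 3 genes most alike by Pearson r over group means. The genes and lists were chosen with earlier results of these data known. Some genes of the lists are counted in them but not reported here by name.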

Additional observations from a re-analysis of the deposited data

Results flagged for a closer look

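BBC3 (PUMA) responded to AT7519 differently in OSMI2 and in Scr, by an interaction term in the edgeR fit. Its log2 fold change was 0.45 in Scr and -0.90 in OSMI2, a difference of -1.35 (SE 0.26, adjusted p = 0.0169). The differences of siOGT1 and siOGT2 from Scr had the same sign, at -0.68 and -0.65, and neither passed. The 2 DMSO libraries stood at 6.23 and 4.57 CPM in Scr and 10.5 and 8.53 CPM in OSMI2, and the 2 AT7519 libraries at 7.42 and 7.37 CPM in Scr and 5.66 and 4.47 CPM in OSMI2. The OSMI2 difference was negative in every alternative. It lost its call without OSMI2 DMSO replicate 1, Scr DMSO replicate 2 or OSMI2 AT7519 replicate 2 (adjusted p 0.0766 to 0.12).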

How the results depend on the processing

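No value of the 10 genes changed sign past the threshold in any alternative, and the falls of BCL2L11, BMF, BIK, PMAIP1 and BAK1 with AT7519 kept their call in each fit that tested them. Upper-quartile scaling moved the median of all genes by 0.15, 0.13, 0.11 and 0.17 (log2) for AT7519 in Scr, siOGT1, siOGT2 and OSMI2, and library-size scaling by -0.25, -0.22, -0.26 and -0.25. The share of higher among called genes was 47%, 46.9%, 49.2% and 50.1%, and became 58.7%, 59.1%, 57.8% and 62.1% or 26.9%, 25.5%, 26.1% and 29.2%. For siOGT1, siOGT2 and OSMI2 against Scr it was 47%, 44.6% and 16.5%, 55.3%, 55.1% and 41.5% with upper-quartile scaling, and 60.2%, 62.5% and 53.6% with library size. With 2 libraries per group, calls near the threshold rest on single libraries.

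A mean log2 CPM of 3 or more left 7 of the 10 genes in the test. It gave 6782, 6318, 6519 and 7122 genes called with AT7519 in Scr, siOGT1, siOGT2 and OSMI2, and 2 of the tested BCL2 family genes for siOGT2 against Scr and 0 for OSMI2 against Scr, where BBC3 was not tested.

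For OSMI2 against Scr, called genes numbered 378 with upper-quartile scaling, 390 with library size, 1115 with DESeq2 and 1575 with the compared groups only. With the compared groups only, siOGT1 and siOGT2 against Scr gave 3925 and 1633 genes, and siOGT2 gave 2 of the 10. The interaction of siOGT1 called 20 genes with library size, 85 with DESeq2 and 100 without filter, and that of siOGT2 called 3 with DESeq2 and 8 without filter. That of OSMI2 called 426 with DESeq2, 551 without filter and 285 with the compared groups only. Of the 10 genes it called 2 with RLE, upper-quartile or library-size scaling and 3 with DESeq2, without filter or with the compared groups only.

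Replicate numbers did not pair the samples by the labels. Deviations of same-numbered libraries correlated at 0.604 to 0.734 between siRNA arms of 1 agent, at 0.0448 to 0.185 between OSMI2 and siRNA arms and at -0.135 to 0.432 between agents. The 0.432 was between OSMI2 DMSO and OSMI2 AT7519, and every other pair across agents was at most 0.122. The sources used here do not state whether OSMI2 libraries were handled apart from the siRNA arms. Such a difference and OSMI2 itself cannot be told apart in OSMI2 against Scr. The replicate block gave 1605 genes for siOGT2 and 1224 for OSMI2 against Scr, 34 and 376 for the siOGT1 and OSMI2 interactions, and 2 of the 10 for the latter. The replicate block within agent gave 4387, 2574 and 2391 genes for the 3 arms against Scr, 218, 6 and 784 for the interactions, and 3 of the 10 for siOGT2 against Scr, 2 for OSMI2 against Scr and 4 for the OSMI2 interaction.

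With 1 library left out, called genes ranged from 776 to 1359 for siOGT1 against Scr, 182 to 396 for siOGT2, 9 to 371 for OSMI2, and 3 to 20, 0 to 2 and 33 to 378 for the interactions. Of the 10 genes, 1 to 2 were called for siOGT1 against Scr, 0 in every such fit for siOGT2, 0 to 1 for OSMI2, and 0 to 3 in the OSMI2 interaction.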
